A study of Mus musculus with 4 samples.

Results

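Conventional CD4 T cells whose receptor was found in 2 or more cells of a library were compared with conventional CD4 cells whose receptor was found once, in mouse lung carrying TC1 tumors and in normal lung. A clonotype was a set of cells of 1 library with identical V genes and CDR3 nucleotides of the productive alpha and beta chains. The members were 1220 of the 15533 deposited cell barcodes. The expanded side held 126 cells, 68 in 29 clonotypes of the tumor library and 58 in 25 clonotypes of the normal library. The unexpanded side held 1094 cells, 728 of the tumor and 366 of the normal library, each alone in its clonotype and without a UMI of Ccr7. A UMI (unique molecular identifier) is a count of 1 captured RNA molecule. Cells entered with at least 500 detected genes, under 10% mitochondrial UMIs, at least 2500 UMIs, 1 or 2 productive alpha chains and 1 productive beta chain. A clonotype in which any cell held a Foxp3 UMI was left out, so that "conventional" means without a Foxp3 UMI. The members were thus chosen by their receptor sequences and their Ccr7 and Foxp3 counts, and those 2 genes and the receptor segments are described below without being read as results.

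Both groups of mice were C57BL/6. The tumor group had received TC1 cells, a transplantable line of transformed mouse lung epithelium, through the tail vein 3 weeks before the lungs were taken, and the other group were normal mice of matching age. Both lungs were perfused, digested with collagenase and enriched for lymphocytes, and live CD4-positive cells were sorted. Each tissue gave 1 gene expression library and 1 receptor library, with a target of 10000 cells. The number of mice behind a suspension was not given in the sources used here. With 1 library per tissue, tissue and library cannot be told apart.

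A naive CD4 T cell carries a receptor that few other cells of the body share, circulates through lymph nodes by means of CCR7, and divides little. After it meets its antigen it divides, so that daughter cells carry the same rearranged alpha and beta chains, and it can acquire the Th1 program of T-bet and interferon gamma, cytotoxic granule proteins, or the receptors of cells that circulate through or stay in tissue. Reading the receptor of each cell beside its RNA therefore shows which programs accompany a shared receptor.

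The largest clonotypes of each library are shown by their CDR3 sequences, the junction of the rearranged V and J genes (with D in the beta chain) that defined membership. Lower case marks the longest start shared by at least 25% of CDR3s of the same V gene. It also marks the longest end shared by at least 25% of CDR3s of the same J gene, and capitals mark the bases between. No D gene sequence was used, so capitals in beta chains can include D bases that other chains share. The alpha segments lie on mouse chromosome 14 and the beta segments on chromosome 6 of GRCm38 (mm10), for example TRAV14-1 at chr14:53554057-53554558 and TRBV16 at chr6:41151791-41152230.
Tumor clonotype 1 alpha, 6 cells, TRAV14-1 and TRAJ24: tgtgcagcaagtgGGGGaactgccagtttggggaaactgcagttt
Tumor clonotype 1 beta, TRBV16 and TRBJ1-3: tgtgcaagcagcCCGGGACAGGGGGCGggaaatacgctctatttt
Tumor clonotype 2 alpha, 4 cells, TRAV8N-2 and TRAJ38: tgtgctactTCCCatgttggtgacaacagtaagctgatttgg
Tumor clonotype 2 beta, TRBV2 and TRBJ1-1: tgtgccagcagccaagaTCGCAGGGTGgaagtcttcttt
Normal clonotype 1 second alpha, 5 cells, TRAV9D-3 and TRAJ21: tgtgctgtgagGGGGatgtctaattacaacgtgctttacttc
Normal clonotype 1 beta, TRBV2 and TRBJ1-1: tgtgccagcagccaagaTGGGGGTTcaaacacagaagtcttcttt
Normal clonotype 2 alpha, 3 cells, TRAV13N-1 and TRAJ6: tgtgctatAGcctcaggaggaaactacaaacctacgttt
Normal clonotype 2 beta, TRBV20 and TRBJ2-5: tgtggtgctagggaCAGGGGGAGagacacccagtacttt
Normal clonotype 6, with 3 cells, carried the same beta chain and the same first alpha chain as normal clonotype 1 but no second alpha chain. The rule counts them apart, and joined they held 8 cells.

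No expanded receptor was found whole in the other library, and no beta chain of one was. An alpha chain of 1 tumor and 2 normal clonotypes was found in the other library. The libraries shared 86 cell barcodes, counted over all barcodes deposited.

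A further clonotype of the normal library stood just outside the rule. It held 28 cells, the most of any clonotype in either library, and was left out because 1 of its cells held 1 Foxp3 UMI.
Left-out normal clonotype alpha, TRAV9-1 and TRAJ22: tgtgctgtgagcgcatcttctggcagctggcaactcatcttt
Left-out normal clonotype beta, TRBV26 and TRBJ1-2: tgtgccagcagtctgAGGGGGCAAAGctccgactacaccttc
Its alpha chain had no base outside the shared starts and ends. Of the 28 cells, 27 had no Foxp3 UMI and none had a Ccr7 UMI. They held 1505 UMIs of Ccl5 in 26 cells, 309 of Nkg7 in 28 cells, 131 of Klrg1 in 24 cells, 85 of Ifng in 20 cells and 75 of Gzma in 8 cells, and no UMI of Igfbp4, Pdcd1 or Ikzf2. Because this clonotype is no member, the largest clonotype meant below by "without the largest normal clonotype" is the 5-cell normal clonotype 1, apart from alternatives that admit the 28-cell one or redraw the clonotypes.

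Expanded cells were few. They made up 1.48% (95% Clopper-Pearson interval 1.15 to 1.87) of 4606 conventional cells with a paired receptor in the tumor library and 1.19% (0.903 to 1.53) of 4882 in the normal library, and these intervals overlap. For comparison, among cells of Foxp3 clonotypes 31.8% (28.7 to 35.0) of 887 lay in clonotypes of 2 or more cells in the tumor library and 20.9% (15.1 to 27.8) of 172 in the normal library, where 28 of the 36 such cells were the left-out clonotype. A Foxp3 UMI in any cell assigned the whole clonotype, so larger clonotypes had more chances to count as Foxp3. The conventional totals also held 3810 tumor and 4458 normal single cells with Ccr7. Most expanded clonotypes were pairs: 23 of 29 in the tumor library, beside 4 of 3 cells, 1 of 4 and 1 of 6, and 19 of 25 in the normal library, beside 5 of 3 cells and 1 of 5. These intervals, like all others given here, cover counting error only and treat cells of a clonotype, or UMIs of a cell, as if they were independent.

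The expanded cells had no Ccr7 UMI in 53 of 68 tumor cells (77.9%) and 45 of 58 normal cells (77.6%). Among conventional cells alone in their clonotype that share was 16.04% in the tumor and 7.59% in the normal library, and only those cells form the unexpanded side. The 2 sides therefore differ in Ccr7 by construction, with 91 and 65 UMIs on the expanded side and 0 on the other.

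The normal library stood apart at low depth. Among conventional cells under 2500 UMIs, 93 of 398 (23.4%, 19.3 to 27.8) lay in clonotypes of 2 or more cells in the normal library against 1 of 179 (0.559%) in the tumor library. Without the minimum of UMIs the normal library would gain 105 expanded cells, including 31 pairs in which both cells were under 2500 UMIs, and 23 of those pairs held Ccr7 in both cells. The minimum removed these, but 4 of the 19 kept normal pairs (clonotypes 8, 16, 20 and 23) also held Ccr7 in both cells, with summed UMIs of 5053 to 7028 against a median of 9421 in the other normal pairs. In the tumor library 2 of 23 pairs did, with sums of 14779 and 18786. The barcodes of paired cells differed in at least 7 of 16 bases. Leaving out every cell with Ccr7 removes these pairs, and in the comparison that follows 353 genes were then higher and 305 lower, with the call and direction of all 24 genes named by size kept. A minimum of 3500 UMIs gave 125 and 174, but it also brought in 26 cells of the left-out 28-cell clonotype, and without them it gave 144 and 184.

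The members carried the RNA of CD4 T cells. The sum of 9 CD4 alpha-beta T cell markers was 5897 CPM (counts scaled to 1000000 UMIs) in expanded and 4833 in unexpanded tumor cells, and 5978 and 5306 in normal cells. Cd8a, Lyz2 and Ncr1, which define CD8 T cells, macrophages and NK cells, had no UMI on any side. The other CD8 marker, Cd8b1, stood at 12.4 CPM in expanded and 8.86 CPM in unexpanded tumor cells. In normal cells it stood at 0 and 10.8 CPM, and it did not pass the test. The sum of 8 myeloid markers was 183 against 120 CPM in tumor and 123 against 111 CPM in normal cells, and none of the 2 tested passed. The sum of 7 invariant NKT cell markers was 730 against 335 CPM and 591 against 297 CPM, of which Il2rb gave 611 and 442 CPM on the expanded sides. Zbtb16, which defines those cells, had no UMI on the expanded sides, and the TRAV11 and TRAJ18 chain of those cells was in 0 expanded clonotypes, against 8 (1.1%) tumor and 3 (0.8%) normal unexpanded cells. Expanded cells were deeper, with a median of 5565 UMIs against 3995.5 in the tumor library and 4209 against 3831.5 in the normal library, and had a median of 2087.5 detected genes against 1517.5 and 1774.5 against 1482.

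UMIs were summed over each side of each library, which gave 403928 UMIs for expanded and 3160459 for unexpanded tumor cells, and 269156 and 1475557 for normal cells. The 4 sums were fitted together with library and side as terms by edgeR's quasi-likelihood test, and a gene counted as changed at a Benjamini-Hochberg adjusted p under 0.05. Of 7334 genes tested, 167 (2.28%) were higher and 183 (2.5%) lower in expanded cells. Without the largest normal clonotype, 248 of 7289 (3.4%) were higher and 234 (3.21%) lower, among them 163 of the 167 and 182 of the 183. The median log2 difference over all genes tested was near 0, with 3667 above it. The fit had only 1 residual degree of freedom among samples, so the spread was borrowed across genes and the 2 tissues served as the replicates.

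**Figure D1:**
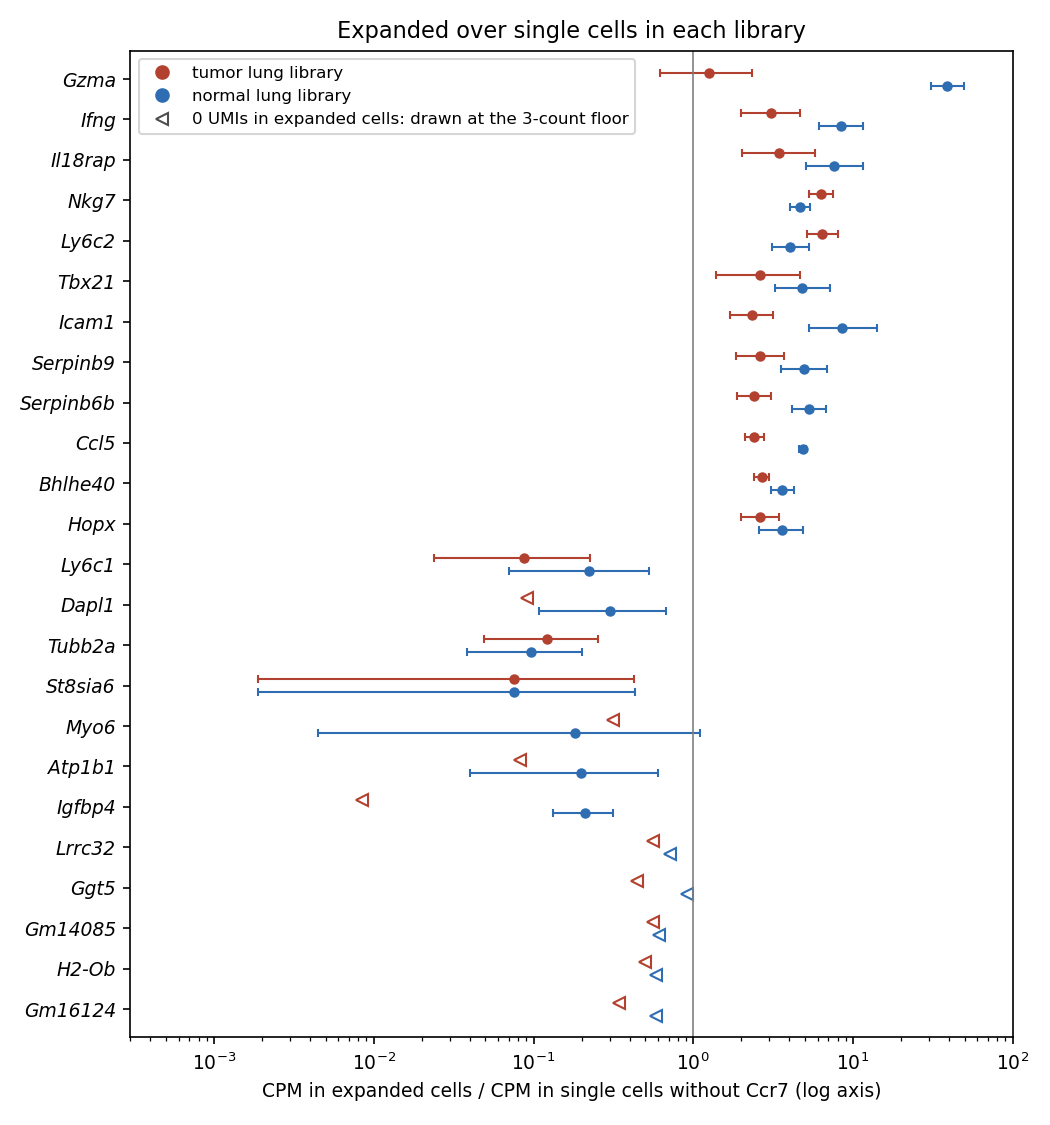
Ratio of CPM in expanded over unexpanded ("single") cells, on a log axis, for the 24 genes named by size of change, with 95% counting intervals, tumor library in red and normal library in blue, and open triangles where expanded cells held 0 UMIs and the ratio is drawn at the 3-count floor. The 12 genes named as higher lie above 1 in both libraries because the naming asked for the same sign in both. Gzma lies at 38.8 in the normal and 1.25 in the tumor library.

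Genes of Th1 and cytotoxic cells rose together in expanded cells. Of the 14 genes tested from a list of 18 Th1 and cytotoxic genes, 10 were higher and 0 lower in expanded cells. Among all genes 2.28% were higher, and the list's median log2 difference was 1.40. This and the other lists were chosen with earlier results of these data known, so their counts are no separate check. Nkg7 (chr7:43437138-43438246), a membrane protein of cytotoxic granules, had 231 UMIs in expanded and 286 in unexpanded tumor cells, and 351 and 412 in normal cells. That is 572 against 90.5 CPM in tumor and 1304 against 279 CPM in normal cells, higher on the expanded side of both. The ratio was 6.32 (5.29 to 7.54) in the tumor and 4.67 (4.04 to 5.40) in the normal library. The log2 difference was 2.32 ± 0.15 (SE, edgeR quasi-likelihood test, Benjamini-Hochberg adjusted p = 1.25e-05). Each SE of a log2 difference is its absolute value divided by the square root of that test's F statistic. It is not a spread measured over replicates.

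Ccl5 (chr11:83525778-83530518), a chemokine that draws T cells and monocytes, was the most abundant of these genes. It stood at 711 against 295 CPM in tumor and 10076 against 2081 CPM in normal cells, so the normal unexpanded cells already exceeded the tumor expanded ones. The ratios were 2.41 (2.11 to 2.76) and 4.84 (4.60 to 5.10), and the log2 difference was 1.70 ± 0.17 (SE). Ifng (chr10:118441046-118445894), interferon gamma, rose from 26.6 to 81.7 CPM in tumor and from 46.8 to 394 CPM in normal cells (log2 difference 2.34 ± 0.29, SE). Tbx21, which encodes T-bet, the transcription factor of Th1 cells, followed it, at 39.6 against 15.2 CPM and 189 against 39.3 CPM (log2 difference 1.81).

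The granzymes are serine proteases delivered into target cells, and the 3 tested rose over both libraries. Gzma (chr13:113093824-113100981) had 12 UMIs in expanded and 75 in unexpanded tumor cells, a ratio of 1.25 (0.619 to 2.32) whose interval includes 1. In normal cells it had 595 and 84 UMIs, a ratio of 38.8 (30.9 to 49.4). Its combined log2 difference of 3.64 ± 0.71 (SE) thus rests on the normal library, and without that library it was 0.32. Gzmb stood at 225 against 120 CPM in tumor and 160 against 23.0 CPM in normal cells, and Gzmk at 86.6 against 31.6 and 70.6 against 23.0 CPM, both with a log2 difference of 1.40. Few clonotypes carried them: 3 held 75 of 91 tumor and 3 held 35 of 43 normal expanded Gzmb UMIs. For Gzmk, 3 held 27 of 35 and 3 held 14 of 19. Both genes lost their call with 1 cell per expanded clonotype. Of 79 called list genes with a value in that setting, 16 lost their call and 1 changed sign. Tbx21, Cxcr6, Cx3cr1, Ccr2 and Plek were also among the 16. Perforin, Prf1, which lets granzymes enter a target, had only 1 and 2 UMIs on the expanded sides and was not tested. Cxcr3, the chemokine receptor of Th1 cells, rose with a log2 difference of 1.33, and the cathepsins Ctsd and Ctsw rose by 1.05 and 1.00. Fasl, Stat4, Il12rb2 and Tnf did not pass the test, with log2 differences of 0.79, 0.53, 1.64 and 0.02.

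Of 9 tested genes from a list of 10 of circulating effector cells, 6 were higher and 0 lower, with a median of 1.82, and the ratio was above 1 for 6 in the tumor and 8 in the normal library. Ly6c2, a surface protein of antigen-experienced T cells, had 148 and 180 UMIs in expanded and unexpanded tumor cells and 102 and 138 in normal cells, ratios of 6.43 and 4.05 and a log2 difference of 2.26 ± 0.20 (SE). Itgb1, the beta-1 integrin chain that binds matrix, stood at 520 against 162 CPM in tumor and 1226 against 493 CPM in normal cells (log2 difference 1.37). The fractalkine receptor Cx3cr1 and the transcription factor Zeb2 had nearly all their expanded UMIs in the normal library. Cx3cr1 had 28 UMIs in normal and 2 in tumor expanded cells, and Zeb2 had 32 and 1. Their combined log2 differences were 2.53 and 2.65, but the tumor ratio of Zeb2 alone was 0.978. Plek and Slamf7 rose by 2.01 and 1.82, and Slamf7 lost its call without the largest normal clonotype (log2 1.46, adjusted p = 0.0806 by edgeR's quasi-likelihood test with Benjamini-Hochberg adjustment). Klrg1, a lectin receptor of terminal effector cells, had 0 UMIs in expanded and 75 in unexpanded tumor cells but 70 and 29 in normal cells, and did not pass the test.

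Of 13 genes tested from 14 associated with residence in tissue, 6 were higher and 0 lower, with a median of 0.74. Bhlhe40, a transcription factor needed for cytokine production by tissue T cells, had 406 UMIs in expanded and 1187 in unexpanded tumor cells and 246 and 374 in normal cells, a log2 difference of 1.51 ± 0.14 (SE). Cxcr6, a chemokine receptor of T cells in tissues, stood at 178 against 72.8 CPM in tumor and 141 against 63.7 CPM in normal cells (log2 1.12). Hopx, Ccr2 and Rgs1 rose by 1.48, 1.12 and 0.83. Cd69, the classical marker of resident cells, did not pass the test (log2 0.04), and Itgae and Itga1, the alpha chains of the integrins CD103 and CD49a, had at most 6 UMIs on either expanded side. Over 13 chemokine and trafficking receptors tested, 5 were higher, Cx3cr1, Cxcr3, Ccr2 and Cxcr6 among them, and S1pr1 was lower.

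Genes shared by memory and effector T cells rose together. Of 20 tested, 15 were higher and 0 lower, and all 20 had a ratio above 1 in both libraries. Lgals1, the lectin galectin-1, stood at 1124 against 481 CPM in tumor and 2248 against 837 CPM in normal cells (log2 1.21). S100a4 and Ahnak rose by 1.21 and 1.26, Vim by 0.87 and S100a6 by 0.71. The chain of the interleukin 18 receptor Il18rap had 23 and 52 UMIs in tumor and 61 and 44 in normal cells, ratios of 3.46 and 7.60 and a log2 difference of 2.32, the third largest of the 12 rises named by size. Cd44, the usual surface marker of memory, did not pass the test with all clonotypes (log2 0.69, adjusted p = 0.132 by edgeR's quasi-likelihood test with Benjamini-Hochberg adjustment). The genes named by size of rise were completed by Icam1, an adhesion molecule (1.78), Hopx, given above, and Serpinb9 and Serpinb6b, inhibitors of serine proteases such as granzymes (1.73 and 1.71).

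Genes of naive cells were lower on the expanded side. Clearing the unexpanded side of Ccr7 left much RNA of naive-cell genes there. In single tumor cells without Ccr7, Igfbp4, Lef1 and Tcf7 stood at 877, 459 and 372 CPM, against 1435, 725 and 510 with Ccr7. In single normal cells they stood at 426, 506 and 382 CPM without Ccr7, against 1131, 839 and 504 with it. Of 15 tested genes of naive cells and lymph node homing other than Ccr7, 14 were lower and 0 higher, against 2.5% lower among all genes, with a median of -1.80. Igfbp4 (chr11:99040005-99052655), which encodes a binding protein of insulin-like growth factors and marks naive T cells, had 0 UMIs in expanded and 2773 in unexpanded tumor cells, at least 118-fold lower against a floor of 3 counts. In normal cells it had 24 and 628. Lef1, a transcription factor of naive T cells, stood at 121 against 459 CPM in tumor and 186 against 506 CPM in normal cells (log2 difference -1.80). Both groups of expanded cells lay below both unexpanded groups in Igfbp4 and Lef1.

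Dapl1, Ly6c1, Bach2, Satb1 and Rflnb fell by 3.23, 3.01, 2.85, 2.25 and 2.03 on the log2 scale. Tcf7, Klf2, S1pr1 and Il7r, which serve naive and central memory cells alike, fell by less, with log2 differences of -1.13, -1.05, -0.88 and -0.82. Only Cd55 missed the threshold (-1.39). Outside the list, Tubb2a, a beta tubulin, had 7 and 450 UMIs in tumor and 7 and 398 in normal cells (log2 -3.32), and St8sia6, a sialyltransferase, 1 and 104 and 1 and 73 (-3.80). Atp1b1, a sodium pump subunit, had 0 and 284 UMIs in tumor and 3 and 83 in normal cells, and Myo6, an unconventional myosin, had 0 and 75 and 1 and 30. Gm16124, H2-Ob, Gm14085, Ggt5 and Lrrc32 had no UMI in any expanded cell and were at least 4.65, 3.63, 3.34, 3.44 and 3.15-fold lower, taking 3 counts over both libraries as the floor. Lrrc32 is a gene of the Treg list and lost its call in 7 of 13 alternative settings.

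**Figure D2:**
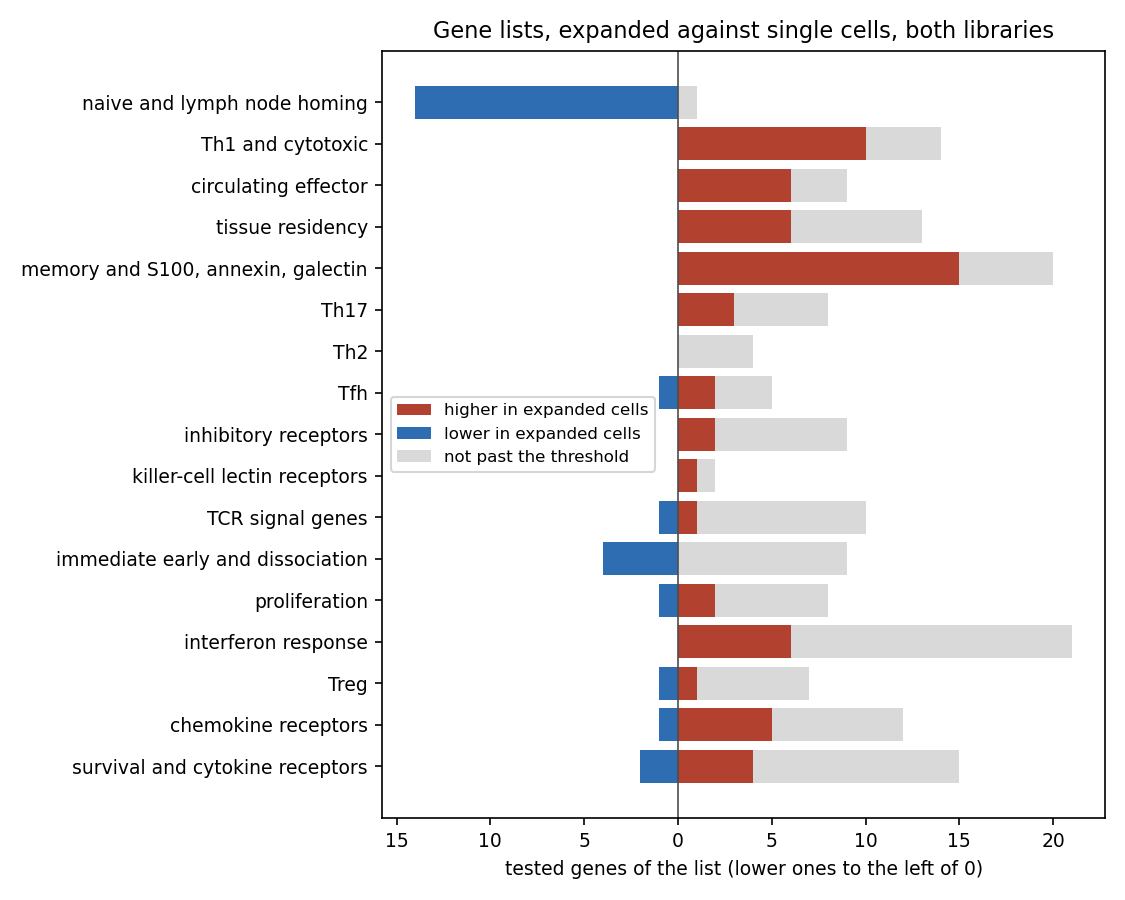
Number of tested genes of each gene list that were higher (red, right of 0), lower (blue, left of 0) or not past the adjusted threshold (grey) in expanded against unexpanded cells of both libraries. The naive list has 14 genes lower and 0 higher, and the memory list 15 higher and 0 lower.

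Other helper programs changed in single genes. Of 8 Th17 genes tested, 3 were higher and 0 lower: Tmem176a (1.34), Rora (0.91) and Tmem176b (0.87). Il17a, the cytokine that defines Th17 cells, did not pass, with 16 and 136 UMIs in expanded and unexpanded tumor cells and 0 and 6 in normal cells. None of the 4 Th2 genes tested passed, with log2 differences of -0.01 for Gata3, their transcription factor, 0.47 for Ccr4, 0.26 for Ccr8 and -0.16 for Areg. Of 6 genes of follicular helper cells, Sh2d1a (0.79) and Icos (0.53) were higher and Izumo1r (-1.27) lower, and Cxcr5 had no UMI on either expanded side.

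Inhibitory receptors rose in part. Of 9 tested, 2 were higher and 0 lower. Pdcd1, which encodes PD-1, stood at 300 against 140 CPM in tumor and 70.6 against 35.2 CPM in normal cells, ratios of 2.14 and 2.0 at levels that differed (log2 0.96), and Tigit rose by 0.71. Ctla4 and Lag3 passed only without the largest normal clonotype, where 4 were higher. Genes induced by the T cell receptor showed no common direction, with Nr4a2 higher (0.83), Myc lower (-2.79) and 9 of 11 not past the threshold.

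Of 13 immediate early genes, which also respond to tissue digestion, 0 were higher and 4 lower, namely Jun (-1.94), Fos (-0.66), Zfp36 (-0.61) and Junb (-0.40). Of 9 genes of dividing cells, Birc5 (2.55) and Stmn1 (1.20) were higher and Tubb5 lower (-0.65). Birc5 had 16 UMIs in tumor and 7 in normal expanded cells, and all 7 lay in normal clonotype 18. Mki67, the usual marker of division, had 11 and 4 UMIs on the expanded sides and did not pass with all clonotypes (log2 1.93). Among genes of survival, Bcl2 was lower (-1.42), while its relatives Bcl2a1d and Bcl2a1b (1.29 and 1.03) and Il2rb, the receptor chain for interleukins 2 and 15 (1.00), were higher.

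Of 21 interferon-induced genes tested, 6 were higher and 0 lower over both libraries, with ratios above 1 for 19 genes in the tumor and 13 in the normal library. Isg15, a ubiquitin-like protein, stood at 871 against 424 CPM in tumor and 149 against 109 CPM in normal cells (log2 0.72), and Ifit3 at 413 against 171 and 11.1 against 6.78 CPM (1.12). Ifitm3 and Rsad2 had 180 and 79 UMIs in tumor expanded cells and 0 in normal ones. Isg20 passed over both libraries (1.13), although its ratio was 2.81 in the tumor and 0.806 in the normal library. Under DESeq2 on the same sums Isg15, Isg20, Ifit3 and Gbp2 did not pass and the sign of Ifitm3 turned. Such losses went beyond interferon genes. Of 64 called list genes with an adjusted p under DESeq2, 31 lost their call and 1 changed sign. Gzma, Cxcr6, Pdcd1 and Igfbp4 were among the 31.

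Ribosomal protein genes were the largest block of the genes that fell, 68 of 81 tested. They took 22.5% of UMIs in expanded and 30.7% in unexpanded tumor cells, and 22.6% and 30.2% in normal cells. Their part in the other differences was not tested. Receptor segments gave 11 further calls, 3 higher (Trav14-2, Trbv2 and Trav14-1) and 8 lower, which the choice of cells by receptor bears on directly. Foxp3 had no UMI by the rule, and of 8 other Treg genes Capg was higher (0.82) and Lrrc32 lower. A second list of 8 Treg markers held Ctla4 and Tnfrsf4. It summed to 1344 CPM in expanded and 1026 in unexpanded tumor cells, and to 394 and 510 CPM in normal cells. Of 102 tumor Foxp3 clonotypes of 2 or more cells, 19 held a cell without a Foxp3 UMI, and 2 of 5 normal ones did. Whether the members include Treg cells without a Foxp3 UMI was not tested. Among marker lists of other cells, NK cell markers summed to 2222 CPM in normal expanded cells against 58.3 in unexpanded ones, of which Gzma gave 2211, and B cell markers, which were Ighm and few others, stood lower in expanded cells (81.7 against 129 and 55.7 against 137 CPM).

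The share of cells with a UMI moved the same way as the summed levels. To take depth out of these shares, each cell was thinned to 2500 UMIs. Ccl5 was then found in 35.3% of expanded and 9.34% of unexpanded tumor cells and in 62.1% and 17.5% of normal cells, against 44.1%, 10.2%, 62.1% and 18.3% before thinning. Nkg7 was found in 39.7% and 7.14% of tumor and 63.8% and 19.4% of normal cells after thinning. Cxcr6 was found in 30.9% and 9.34% of tumor cells, and in 15.5% and 8.47% of normal cells. A gene is thus at 0 UMIs in many cells of both sides, and at this depth that does not show it to be silent there. When the sums themselves were made from thinned cells, 130 genes were higher and 166 lower.

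**Figure D3:**
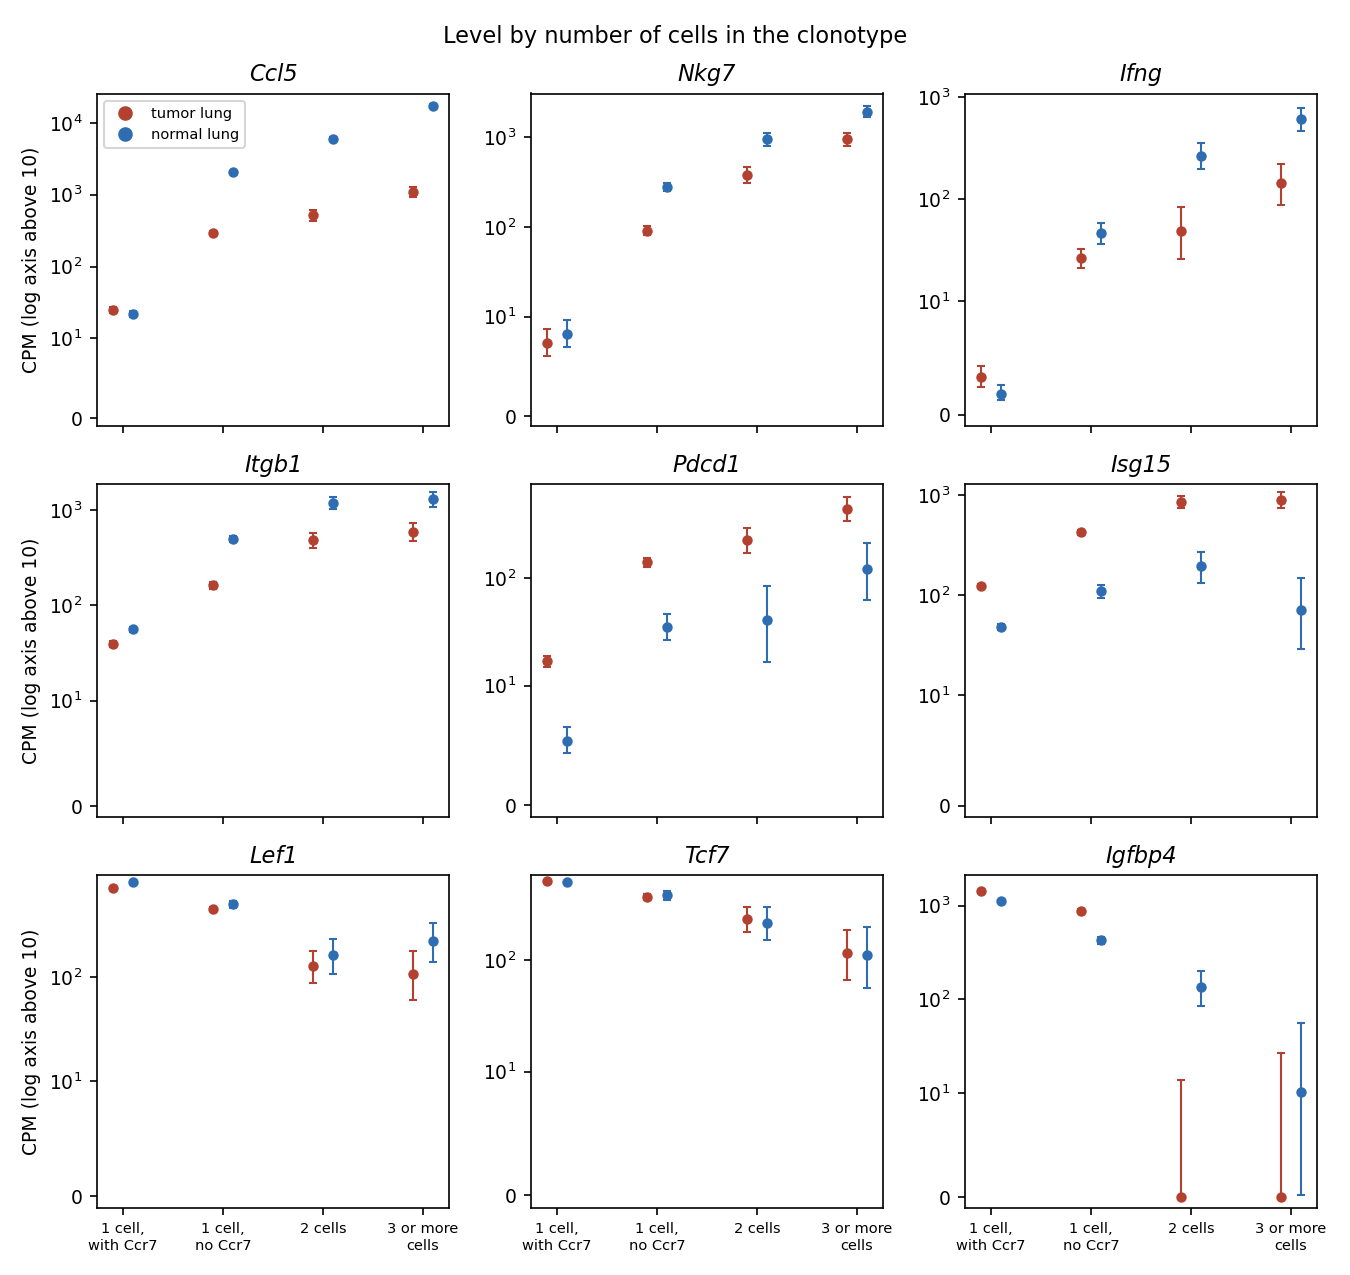
Level of 9 genes in CPM (log axis above 10, linear below) by number of cells in the clonotype, for the tumor (red) and normal (blue) library, with 95% Poisson counting intervals. In both libraries Nkg7 stood higher at each step, from 7.31 to 942 CPM in tumor and from 8.2 to 1932 CPM in normal cells, while Lef1, Tcf7 and Igfbp4 stood lower in expanded than in single cells.

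Some genes stood higher at each step of clonotype size and others did not. The step from single cells with to single cells without Ccr7 is the split made by the rule. Ccl5 in tumor cells stood at 25.0 CPM in single cells with Ccr7, 295 in single cells without it, 515 in pairs and 1087 in clonotypes of 3 or more, and in normal cells at 21.8, 2081, 5884 and 17356 CPM. Ifng followed the same order, at 3.3, 26.6, 48.9 and 145 CPM in tumor and 1.9, 46.8, 269 and 610 CPM in normal cells. Pdcd1 did so too, at 16.8, 140, 226 and 442 CPM in tumor and 5.3, 35.2, 41.0 and 122 CPM in normal cells. In normal cells Cxcr6, Tigit, Cxcr3 and S100a4 departed from the order, at 199, 357, 222 and 410 CPM in pairs and 40.7, 61.0, 102 and 214 CPM in larger clonotypes. In tumor cells Gzmb and Gzma did, at 282 and 41.4 CPM in pairs and 116 and 7.2 in larger clonotypes. Icos was lower in larger clonotypes of both libraries, at 756 and 638 CPM in tumor and 808 and 620 CPM in normal cells. The top class held 22 tumor and 20 normal cells in 6 clonotypes each, so 1 clonotype can set such a value. Of the 20 normal cells, 8 lay in clonotypes 1 and 6, which share a beta and an alpha chain.

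**Figure D4:**
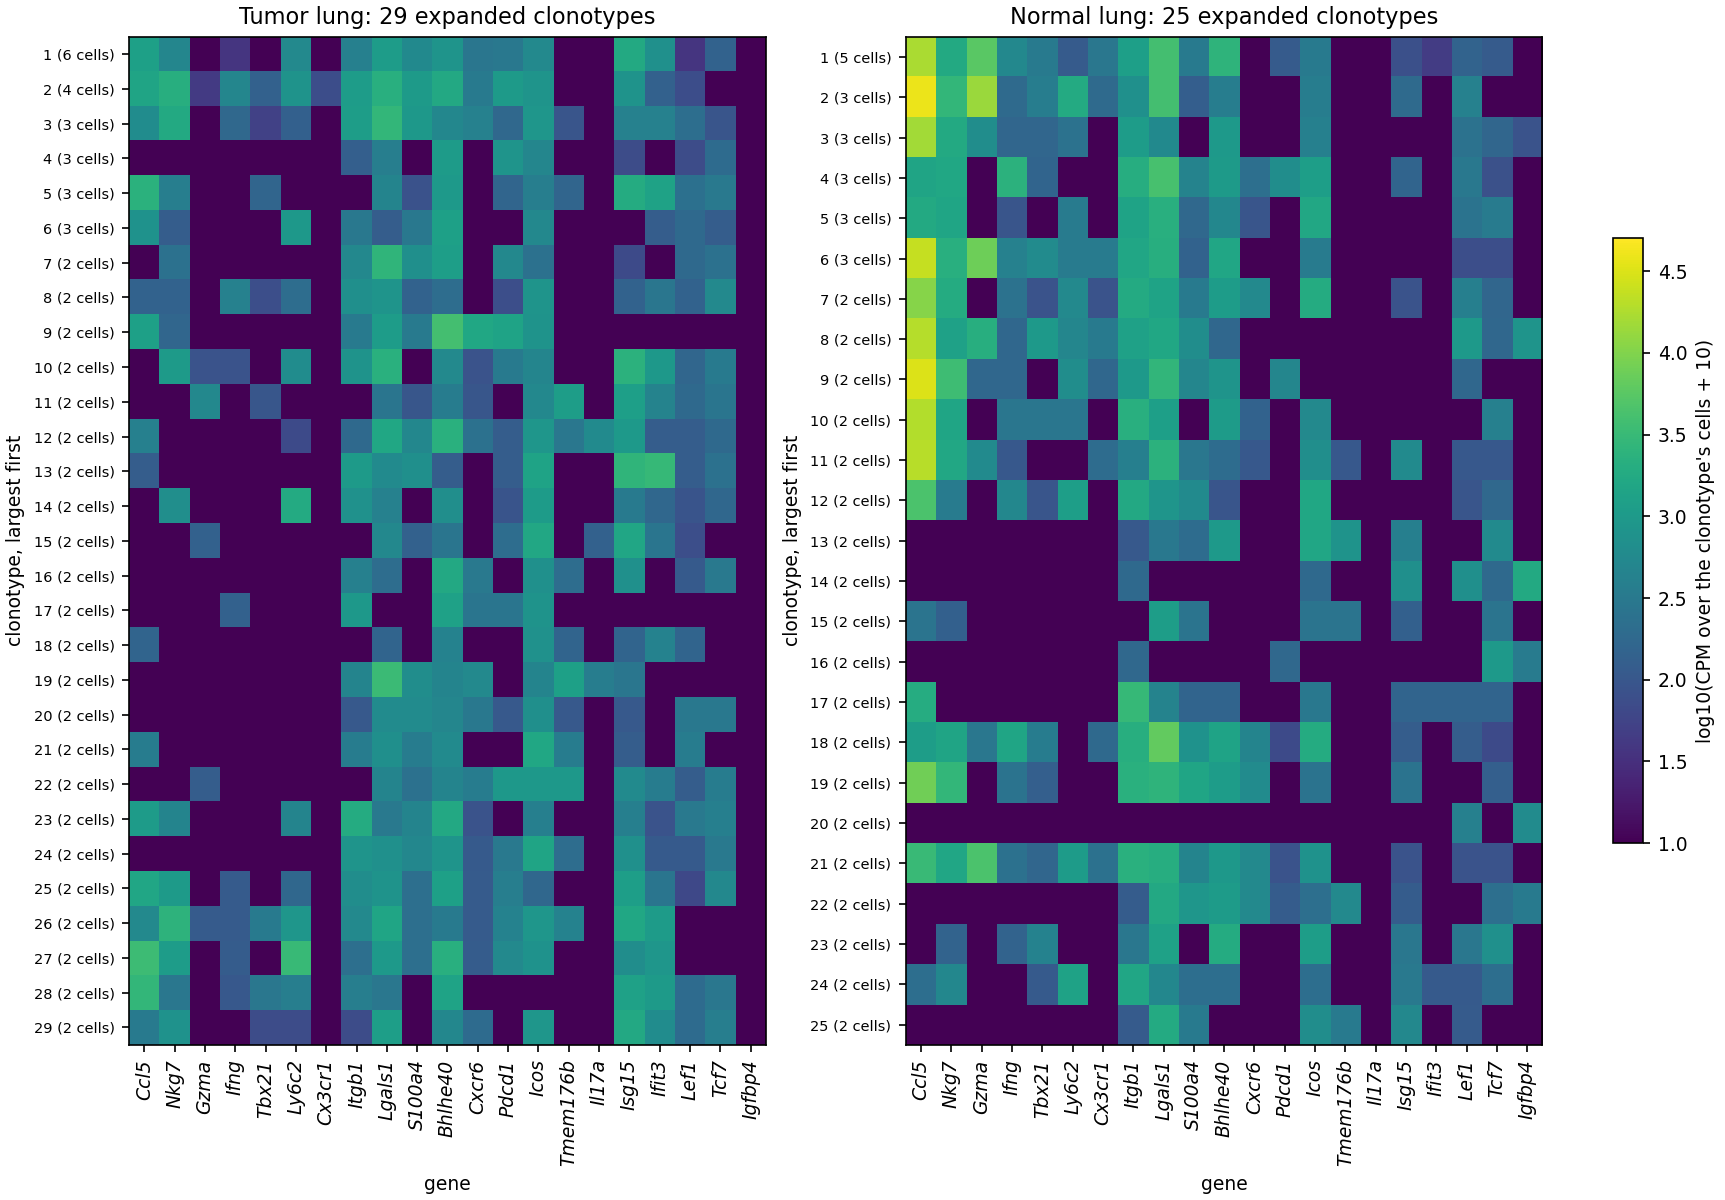
Heat map of the level of 21 genes (columns) in each of the 29 tumor and 25 normal expanded clonotypes (rows, largest first), coloured by log10(CPM + 10). Ccl5 has a UMI in 18 of 25 normal and 17 of 29 tumor clonotypes and is brightest in normal clonotype 2, Gzma lies in 9 normal clonotypes, and Ifit3 lies in 21 tumor and 3 normal ones.

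The clonotypes were not alike. Ccl5 had a UMI in 17 of 29 tumor and 18 of 25 normal clonotypes, with a median of 145 and 1927 CPM and a highest value of 3461 and 38494 CPM. In normal lung, 9 clonotypes held Gzma, all 9 held Ccl5, and 8 of the 9 with Cx3cr1 held Gzma. Normal clonotypes 1, 2 and 6, with 11 cells, held 503 of the 595 Gzma UMIs (84.5%) and 1470 of the 2712 Ccl5 UMIs (54.2%). The first and the last of these share their beta chain, whose sequence is given above, and an alpha chain. None of the 3 held a Cxcr6 UMI, whereas normal clonotypes 7, 18 and 21 held 22 of the 38 Cxcr6 UMIs.

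Ifng was concentrated elsewhere, with 33 of its 106 normal UMIs in clonotype 4, which also held 9 of 19 Pdcd1 UMIs, and 26 in clonotype 18. Without clonotype 1, the largest, Gzma kept 437 UMIs in normal expanded cells and a log2 difference of 3.46. Clonotypes 2 and 6 stayed in, and clonotype 6 shares its beta chain and an alpha chain with clonotype 1. That repeat therefore does not remove the shared receptor. In tumor lung the 6-cell clonotype 1 held 47 Ccl5, 64 Isg15 and 11 Pdcd1 UMIs, and the 4-cell clonotype 2 held 63 Nkg7, 31 Pdcd1, 17 Gzmk and 15 Ifng UMIs. Clonotype 4 of the tumor library, with 3 cells, held neither Ccl5 nor Nkg7 and 13 Pdcd1 UMIs. All 16 Il17a UMIs of expanded cells lay in tumor clonotypes 12, 15 and 19, with 10, 2 and 4. Tumor clonotypes 19 and 22 held 14 and 8 UMIs of Tmem176b. Tmem176b was found without Ccl5 in 6 tumor clonotypes.

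Cells of 1 clonotype agreed for some genes more than for others. After thinning, every cell held a Ccl5 UMI in 11 of 25 normal clonotypes, some did in 7 and none in 7. In tumor lung the counts were 2, 15 and 12 of 29. For Nkg7 they were 12, 5 and 8 in normal and 6, 9 and 14 in tumor lung. Other called genes were mixed in more normal clonotypes, among them Il18rap (4, 12 and 9), Tbx21 (2, 11 and 12) and Bhlhe40 (8, 11 and 6), while Lgals1 had 17, 4 and 4. The counts that a gene's frequency alone would give were not computed. The Ccl5 level was lower in tumor cells, so a cell without a UMI there says less. The difference between the libraries in this agreement was not tested.

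Receptor use was compared over clonotypes, each counted once, with no test because the rule reads the receptor. The TRAV14 family was in 6 of 29 tumor clonotypes (20.7%, against 17.0% of unexpanded cells) and 7 of 25 normal clonotypes (28.0% against 13.1%). TRBV2 was in 3 of 29 tumor clonotypes (10.3%, against 6.0% of unexpanded cells) and 4 of 25 normal clonotypes (against 6.6%), of which clonotypes 1 and 6 carry 1 beta chain. TRAJ12 was in 5 normal clonotypes, 20.0% against 3.0%. With so few clonotypes most of these shares rest on a handful of receptors. The mean beta CDR3 was 13.9 ± 1.39 codons (SD, n = 29 clonotypes) in expanded and 13.9 ± 1.34 in unexpanded tumor cells, and 14.0 ± 1.27 (n = 25) and 13.8 ± 1.34 in normal ones.

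Expanded cells of the 2 tissues were then set side by side, with 1 library each and therefore no test. Of 1268 genes that reached 50 UMIs in 1 of the libraries, 92 (7.26%) were at least 2-fold higher in tumor and 24 (1.89%) at least 2-fold higher in normal expanded cells. The tumor side was led by interferon-induced genes, with 14 of 18 of that list at least 2-fold higher there. The normal side was led by cytotoxic genes, with 5 of 10 of that list at least 2-fold higher there and 1 in tumor. For every gene named here but Klrg1, Cxcr3 and Icos, the ratio between the unexpanded cells of the libraries lay on the same side of 1, and it is given beside several of them.

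Ccl5 was 14.2-fold (12.6 to 16.1) higher in normal expanded cells, and its tumor over normal ratio in unexpanded cells was 0.142. Gzma was 74.4-fold (42.3 to 145) higher in normal expanded cells, with a tumor over normal ratio of 0.417 in unexpanded cells. Klrg1 had 70 UMIs in normal and 0 in tumor expanded cells, at least 35.0-fold higher, although unexpanded cells had a tumor over normal ratio of 1.21. Ifng, Tbx21 and Il18rap were 4.82, 4.78 and 3.98-fold higher in normal expanded cells. The interferon-induced Ifi27 was 3.59-fold higher there, unlike the 14 list genes above, and Klf2, a transcription factor of circulating T cells, was 3.44-fold higher.

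In tumor expanded cells Ifit3 was 37.1-fold (12.5 to 182) and Isg20 24.0-fold (10.1 to 74.8) higher than in normal ones, with ratios of 25.3 and 6.88 in unexpanded cells. Ifitm3 was at least 40.0-fold and Rsad2 at least 17.5-fold higher, each with 0 normal UMIs, and their ratios in unexpanded cells were 16.8 and 16.2. Ifit1, Slfn5, Pml and Oas1a completed the 8 named, at 15.5, 17.7 (4.65 to 150, on 2 normal UMIs), 12.7 and 11.99-fold. Outside the interferon genes, Pdcd1 was 4.24-fold (2.60 to 7.29) higher in tumor expanded cells and 3.98-fold in unexpanded ones, and Cxcr3 was 2.14-fold higher, against a tumor over normal ratio of 0.861 in unexpanded cells. Cxcr6 (1.26, 0.841 to 1.92), Icos (0.968), Ly6c2 (0.967) and Bhlhe40 (1.10) stood near 1.

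**Figure D5:**
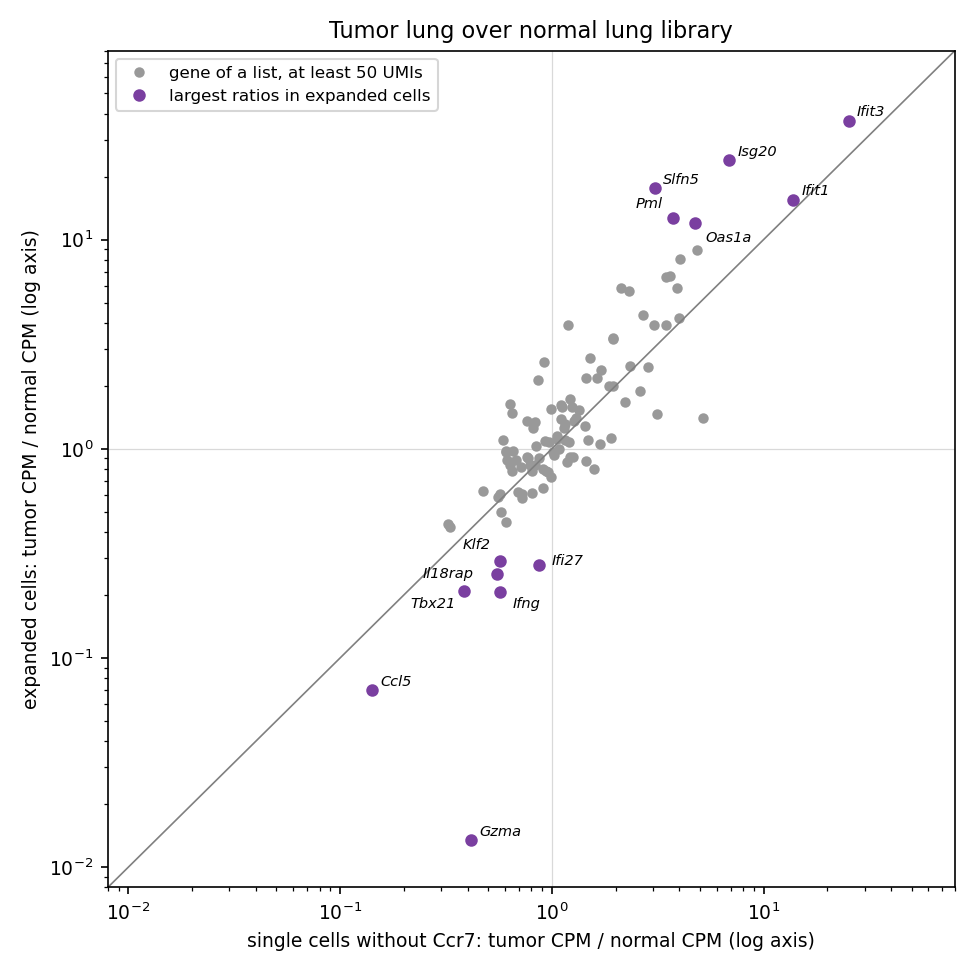
Tumor over normal CPM ratio in expanded cells (vertical axis) of the genes named for the tissues (purple) and of list genes with at least 50 UMIs (grey) against the same ratio in unexpanded cells (horizontal axis), both on log axes, the diagonal marking equal ratios, with genes at 0 UMIs in a library left out. Gzma, with 0.0134 in expanded and 0.417 in unexpanded cells, lies far below the diagonal, and Ifit1, with 15.5 and 13.8, lies near it.

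The number of calls moved with the choice of cells. When cells of both sides had to lack Ccr7 and Lef1, which left 28 tumor and 22 normal expanded against 225 and 120 unexpanded cells, 25 genes were higher and 17 lower with all clonotypes, and 20 and 12 without the largest normal one, among 4521 and 4484 genes that could then be tested. Nkg7 (1.33), Ccl5 (0.79), Bhlhe40 (0.90), Ifng (1.80), Gzma (1.97) and Ifitm3 (1.60) were still higher there. Gzmb (0.91) no longer passed, and S100a6 changed sign (-0.090). Of the lists, 2 of 19 memory genes and 4 of 13 Th1 and cytotoxic genes were higher there, and 3 of 10 naive genes lower. Without the minimum of 2500 UMIs, which lets in the low-depth normal pairs, 16 genes were higher and 4 lower. Of 80 list genes called, Ccl5, Nkg7, Bhlhe40, Ifng, Il18rap and Ly6c2 were the 6 that kept their direction, and their call where there was a test, over 17 alternatives that each changed 1 choice. None of the 6 passed when the minimum of UMIs and the largest normal clonotype were both left out, and Bhlhe40 did not pass by beta chain alone without that clonotype.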

How the data were processed

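The deposited gene expression files held raw UMI counts per gene and barcode, made by the authors with Cell Ranger on mm10 per the submitters' processing notes (version 3.1.0 per the file headers). The deposited receptor tables gave V and J genes, CDR3 nucleotides and productivity per contig. The 2 tables were joined by barcode within each library. No doublet caller was run, and doublets were limited only by allowing 1 beta chain. UMI counts were summed over each side of each library and fitted with edgeR 4.0.16 in R 4.3.3 (filterByExpr, TMM factors, quasi-likelihood test, library and side as terms, Benjamini-Hochberg adjustment). DESeq2 1.42.0 was an alternative. Within 1 library, and between tissues, ratios carry exact conditional 95% intervals and shares Clopper-Pearson intervals, with 3 counts as the floor where a side had none. Intervals and floors cover counting error only. CPM is the count scaled to 1000000 UMIs of a sum.

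Genes named were, in each direction, the 12 largest log2 differences past the threshold with the same sign in both libraries and at least 50 UMIs on the higher side, and for the tissues the 8 largest ratios each way. Both leave out receptor and immunoglobulin segments, ribosomal protein, mitochondrially encoded, hemoglobin and sex-linked marker genes, Foxp3 and Ccr7. Members of the gene lists could be named besides. The lists were naive, Th1 and cytotoxic, circulating effector, tissue residency, memory, Th17, Th2, follicular helper, inhibitory receptor, killer-cell lectin receptor, receptor signal, immediate early, proliferation, interferon, Treg, chemokine receptor and survival. Members and lists were chosen with earlier results of these data known. Coordinates are from RefSeq on GRCm38.p6, in which 120 of 122 gene and segment names looked up were found. Python used numpy 2.4.6, scipy 1.17.1 and pandas 2.3.3. Some genes, 1 receptor sequence and a stricter clearing of naive-like cells, which left fewer genes past the threshold, are not reported here.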

Additional observations from a re-analysis of the deposited data

Results flagged for a closer look

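Among tested list genes, 4 pointed opposite ways in the 2 libraries, with exact intervals of the expanded over unexpanded ratio that left out 1 in each library. Gata3, the Th2 transcription factor, had a ratio of 1.52 in the tumor and 0.667 in the normal library. Slamf6, a receptor of less differentiated T cells, had 1.72 and 0.606. Nfkbia, an inhibitor of NF-kB, had 1.14 and 0.857. Nr4a1, an early gene of receptor signals, ran the other way, with 0.777 and 1.30. These differences between the libraries were not tested.

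Data outside the members also held cells that share a receptor. Of conventional cells under 2500 UMIs, 0.559% of tumor and 23.4% of normal cells lay in clonotypes of 2 or more. The 31 normal pairs with both cells under 2500 UMIs had a median summed UMI count of 3563, below the median of 3963 for 1 conventional normal cell, and whether a pair is 2 cells or 1 cell under 2 barcodes was not tested. The 28 cells of the normal clonotype left out for 1 Foxp3 UMI formed the largest clonotype seen. Its Ccl5 level, 10626 CPM, was near that of normal expanded cells, 10076 CPM.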

How the results depend on the processing

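Counts of genes are given as higher and lower with all clonotypes (167 and 183 as reported), then without the largest normal clonotype of that setting (248 and 234), at an adjusted p under 0.05 by edgeR or, where named, DESeq2. RLE factors gave 312 and 253, then 150 and 154. No filter on low counts gave 248 and 288, then 231 and 277. DESeq2 gave 45 and 54, then 42 and 69. All single cells whatever their Ccr7 gave 671 and 691, then 731 and 756. Ccr7 at 0 on both sides gave 353 and 305, then 220 and 220. Taking 1 cell per clonotype gave 138 and 181, then 67 and 119. Clonotypes of 3 or more cells gave 42 and 84, then 138 and 206. Clonotypes by beta chain alone gave 120 and 52, then 10 and 3. No minimum of UMIs gave 16 and 4, then 1 and 0, with 307 and 189 at an unadjusted p under 0.05, and the 1 was Ccr7. The next were chosen after seeing the data. Joining clonotypes over a shared beta and alpha chain gave 312 and 281, then 153 and 155. Cells without Ccr7 and Lef1 on both sides gave 25 and 17, then 20 and 12. Thinned cells gave 130 and 166, then 191 and 198. A minimum of 3500 UMIs gave 125 and 174, then 144 and 184, and counting clonotypes with 1 Foxp3 UMI gave 270 and 266, then 330 and 298. Leaving out a library leaves no test: of the genes called, 164 to 166 and 183 to 183, then 241 to 247 and 233 to 234, kept their direction in the library that remained. The fit that called these genes had read both libraries, so the call itself largely set this agreement, and it is no separate check.

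The share of expanded cells moved to 1.96% in the tumor and 1.97% in the normal library by beta chain alone. In the normal library it moved to 3.09% with no minimum of UMIs, 1.67% with a minimum of 3500, and 1.79% with the clonotypes of 1 Foxp3 UMI. The last 2 include 26 and 28 cells of the clonotype left out for Foxp3, without which they were 0.963% and 1.23%. The cause of these shifts was not tested, other than the cells that each setting adds or removes. None of the 24 genes named by size changed sign in a setting that gave it a value, which DESeq2 did for 13, cells without Ccr7 and Lef1 for 14, thinning for 20 and the others for 21 to 24. Many lost their call, 14 of 24 with no minimum of UMIs, 8 by beta chain alone and 7 with 1 cell per clonotype. With 3 or more cells 7 of 23 did, without Ccr7 and Lef1 4 of 14, and under DESeq2 2 of 13. Leaving out a library could not change a sign, since the naming asked for the same sign in both. Of 80 list genes called, 7 changed sign in 1 setting. Without Ccr7 and Lef1 these were Lgals3 (-0.042) and S100a6 (-0.090). The others were Ifitm3 under DESeq2 (-0.20), Rsad2 with 1 cell per clonotype (-0.025), Tmem176b with 3 or more cells (-1.93), Isg20 (-0.31 without the tumor library, 1.49 without the normal) and Zeb2 (-0.032 without the normal library, 3.37 without the tumor). The fit is paired by library, since each library gave both sides and library is a term, and no other replicate block exists.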
